A study of Arabidopsis thaliana with 12 samples.

Results

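UGT glycosyltransferases were followed in inflorescence stems of Arabidopsis thaliana. The members are the genes whose symbol starts with UGT followed by digits, taken from probe sets annotated to exactly 1 gene, with UGT78D2 left out. By this rule 46 genes were found among 22746 tested probe sets. Each has 1 such probe set, and none of these is of a kind that the array marks as shared between genes (suffix _s_at or _x_at). A RefSeq gene table for TAIR10.1 lists 64 genes with a UGT name or synonym. Apart from UGT78D2, the rest have no probe set of their own under such a symbol in the tables used, and were not analysed here. The 46 fall into 11 subfamily numbers, with 9 members in UGT71, 8 in UGT76, 7 in UGT73, 5 each in UGT84 and UGT85, 4 in UGT72, 3 in UGT74, 2 in UGT78, and 1 each in UGT80, UGT87 and UGT88.

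RNA came from 4 groups of 3 samples, each hybridised to its own Affymetrix ATH1 array. They were the stem base of wox4-1, the stem base of wild type (ecotype Columbia), the first internode of wox4-1 and the first internode of wild type. The labels describe wox4-1 only as a mutant plant line and give the ecotype for wild type alone. The WOX4 gene encodes a homeobox transcription factor that promotes cell division in the cambium, from which stems grow in girth. No probe set used here carries the name WOX4, so the genotype labels were not checked on that gene. All plants were 49 to 58 days old and 15 to 20 cm tall, and had spent 3 weeks in short days (8 h light) before long days (16 h light). Every sample pooled 13 to 17 stem pieces of 0.5 cm, so plant-to-plant variation within a pool is not seen, and a pool mixes all tissues of the stem. The internode pieces came from 1.5 to 2.0 cm above the rosette. In such bulk tissue, fewer cells of a type and less RNA per cell cannot be told apart.

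UGT enzymes move a sugar, mostly glucose, from a UDP-sugar onto small molecules such as hormones, phenolic acids, monolignols and flavonoids. The sugar makes the acceptor more soluble, and often inactive or ready for storage in the vacuole. Subfamilies share sequence more than substrate: UGT76 holds enzymes for cytokinins and for defence compounds, and UGT74 holds enzymes for auxin, salicylic acid and glucosinolates. In stems, members of UGT72 and UGT84 act on the alcohols and acids of the lignin pathway.

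Values are RMA expression levels on the log2 scale, so a difference of 1 is 2-fold. A gene was called where limma gave an adjusted p (Benjamini-Hochberg over all 22746 probe sets) under 0.05, and "rose" and "fell" are kept for called genes. Array medians lay between 5.56 and 5.71, and replicate arrays correlated at 0.992 to 0.997 (Pearson's r). The array of wox4-1 internode replicate 2 stood apart in an RNA quality measure: its actin control differed by 2.26 between the 3′ and 5′ probe sets, against 1.22 to 1.51 on the other 11 arrays. Wild-type base and wild-type internode arrays with the same replicate number deviated from their group means together (r from 0.29 to 0.59). Calls that change without one of these arrays are given with and without it.

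Many UGT genes gave low values in these stems. For 15 of the 46 members all 4 group means lay under log2 3.62, the 25th percentile of probe set means, where arrays hardly tell levels apart. These dim members were UGT73B4, UGT73C1, UGT73C2, UGT73C7, UGT73D1, UGT74F1, UGT76B1, UGT76D1, UGT76E1, UGT76E2, UGT76E11, UGT76E12, UGT78D3, UGT84B2 and UGT85A5. Another 5 members had 1 to 3 group means under that level, and 26 had none. The 4 group means of a member differed by under 0.25 in 27 members and by over 1 in 3, namely UGT71C1 (2.12), UGT84A3 (1.14) and UGT76C2 (1.02). The median SD of members within a group was 0.12 at the wox4-1 base, 0.11 at the wild-type base, 0.10 in the wox4-1 internode and 0.11 in the wild-type internode. In all, 16 members were called in at least 1 of 5 comparisons and 30 in none, and 1 of the 15 dim members was among the 16. The share of all probe sets called in at least 1 comparison was not computed, and the shares for each comparison are given below. The plot of the called members shows every array.

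**Figure D1:**
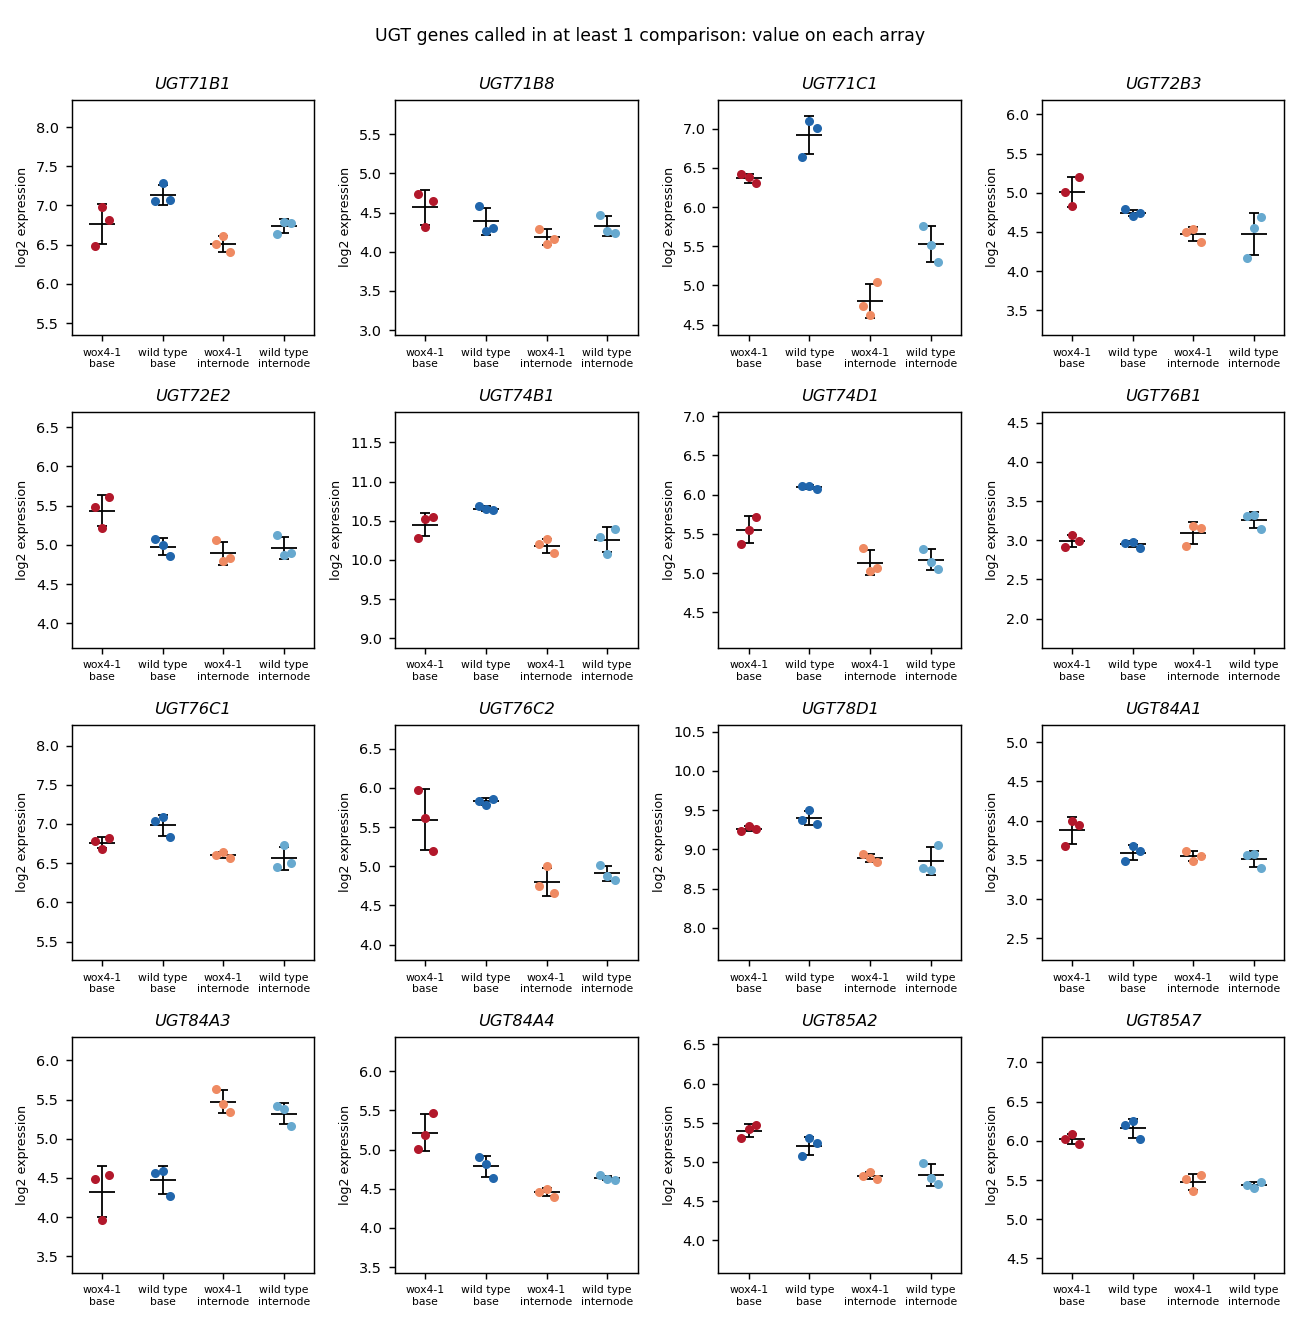
Log2 expression of the 16 UGT genes called in at least 1 comparison (y axis, each panel spanning 3 log2 units) in wox4-1 base, wild-type base, wox4-1 internode and wild-type internode samples (x axis). Points are arrays, and bars are the mean and SD of 3 arrays. UGT71C1 differs most between groups, and UGT84A3 is higher in the internode samples than at the base.

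The first pair of comparisons set the stem base, the older part with more secondary growth, against the first internode in each genotype. More UGT genes rose than fell. In wox4-1 stems 11 of 46 members rose at the base (23.9%, against 11.4% of all probe sets) and 1 fell (2.17%, against 13%). In wild-type stems 9 of 46 rose (19.6%, against 9.6%) and 2 fell (4.35%, against 10.1%). With each array centred on its median, 15 members rose and 1 fell in wox4-1, and the share of rising genes among all called probe sets moved to 67.5% from 46.8%. Without wox4-1 internode replicate 2, the array with the high actin difference, 8 rose and 2 fell in wox4-1. The added member that fell was UGT87A2 (log2 -0.68, adjusted p 0.0431, against -0.47 and 0.132 with that array). In wild type 7 rose and 1 fell without wild-type base replicate 2, without wild-type internode replicate 2 likewise, and 6 rose and 1 fell without both. Without any other 1 wild-type base array, or without wild-type internode replicate 1, 1 member fell, since the call of UGT76B1 ended. Counted without direction the shares were near those of all probe sets, with 26.1% of members against 24.5% in wox4-1 and 23.9% against 19.7% in wild type. Base and internode arrays did not overlap for 17 members in wox4-1 and for 17 in wild type (37% each, against 38.6% of all probe sets in wox4-1 and 39% in wild type). An unadjusted limma p under 0.05 was reached by 17 members in wox4-1 (36.7% of all probe sets reached it) and by 13 in wild type (30.7% of all probe sets). The median member changed by 0.15 in wox4-1 and 0.06 in wild type, against 0.04 and 0.01 over all probe sets. As a description, the mean log2 level over the 46 members was 4.78 to 4.82 on wox4-1 base arrays and 4.60 to 4.65 on wox4-1 internode arrays. For wild type these ranges were 4.74 to 4.83 (base arrays) and 4.61 to 4.71 (internode arrays).

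UGT71C1, which glycosylates a range of phenolics in vitro, had the largest rise among the members in both genotypes. At the base it read 6.42, 6.39 and 6.31 in wox4-1, against 4.73, 4.62 and 5.04 in the wox4-1 internode. In wild type it read 6.64, 7.10 and 7.01 at the base, against 5.76, 5.52 and 5.30 in the internode. Base and internode arrays did not overlap in either genotype. UGT71C1 rose 2.97-fold in wox4-1 (log2 1.57, SE 0.14, limma adjusted p 5.44e-06) and 2.62-fold in wild type (log2 1.39, SE 0.14, adjusted p 1.68e-05).

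Of the 7 members with a listed hormone role, 2 rose in wox4-1 (11.4% of all probe sets rose) and 3 in wild type (9.6% of all probe sets). UGT76C2, which attaches glucose to a nitrogen of cytokinins, read 5.97, 5.62 and 5.20 at the wox4-1 base, against 4.75, 5.0 and 4.66 in the wox4-1 internode. In wild type it read 5.83, 5.78 and 5.86 at the base, against 5.02, 4.88 and 4.82 in the internode. It rose 1.73-fold in wox4-1 (log2 0.79, SE 0.15, adjusted p 0.00207) and 1.89-fold in wild type (log2 0.92, SE 0.15, adjusted p 0.000836). The 3 wox4-1 base arrays spread widely (SD 0.39, the largest of any member at the wox4-1 base), while the wild-type base arrays were close together (SD 0.04).

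UGT76C1, a second cytokinin N-glucosyltransferase and the chromosomal neighbour of UGT76C2, rose 1.34-fold at the wild-type base (log2 0.43, SE 0.09, adjusted p 0.00578). In wox4-1 its change was 0.16 (SE 0.09, adjusted p 0.243). The difference between these 2 changes was -0.27 (SE 0.13, adjusted p 0.653) and was not called.

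UGT74D1 glycosylates auxin and its oxidised form. At the base it read 5.38, 5.56 and 5.72 in wox4-1, against 5.31, 5.02 and 5.07 in the wox4-1 internode. Wild-type base arrays read 6.12, 6.11 and 6.07, against 5.31, 5.14 and 5.06 in the internode. Both genotypes were higher at the base with no overlap of arrays, by 1.34-fold in wox4-1 (log2 0.42, SE 0.11, adjusted p 0.0117) and 1.90-fold in wild type (log2 0.93, SE 0.11, adjusted p 4.25e-05). The wox4-1 call ended without wox4-1 internode replicate 2, the array with the high actin difference (adjusted p 0.0517). None of the 7 fell, where 13% of all probe sets fell in wox4-1 and 10.1% in wild type. With so few members this is not set apart from those shares. It also depends on the listing: UGT76B1, which acts on salicylic acid, was listed under defence and fell in wild type (below). The other 4 hormone members were not called: UGT71B6 and UGT71C5, for abscisic acid, UGT84B1, for indole-3-acetic acid, and UGT76E1, for jasmonates.

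Of the 5 members with a listed role on lignin precursors or hydroxycinnamic acids, 2 rose and 1 fell in wox4-1. In wild type 0 rose and 1 fell. Over all probe sets 11.4% rose and 13% fell in wox4-1, and 9.6% rose and 10.1% fell in wild type. Their relatives UGT84A4 and UGT72B3, described with them, have no listed role. UGT84A3, which forms glucose esters of hydroxycinnamic acids, was the only member that fell at the base in both genotypes. It read 4.48, 3.96 and 4.54 at the wox4-1 base, against 5.63, 5.44 and 5.34 in the wox4-1 internode. In wild type it read 4.56, 4.59 and 4.27 at the base, against 5.42, 5.38 and 5.17 in the internode. All base arrays lay under all internode arrays, and the log2 change was -1.14 in wox4-1 (SE 0.15, adjusted p 9.31e-05) and -0.84 in wild type (SE 0.15, adjusted p 0.00112).

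UGT84A4, the neighbouring gene and a close relative of UGT84A3, was higher at the base. In wox4-1 it read 5.0, 5.18 and 5.46 at the base, against 4.46, 4.50 and 4.40 in the internode. In wild type it read 4.90, 4.82 and 4.64 at the base, against 4.67, 4.63 and 4.61 in the internode. The arrays were apart in wox4-1, where it rose 1.70-fold (log2 0.76, SE 0.11, adjusted p 0.000212), and overlapped in wild type (0.15, SE 0.11, adjusted p 0.412).

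UGT72E2, which glycosylates coniferyl and sinapyl alcohol, the monolignols, rose 1.46-fold at the wox4-1 base (log2 0.54, SE 0.12, adjusted p 0.00394), and its wild-type change was 0.01 (SE 0.12, adjusted p 0.966). UGT72B3, of the same subfamily as the monolignol enzyme UGT72B1, rose 1.45-fold in wox4-1 (log2 0.54, SE 0.13, adjusted p 0.00703) and was not called in wild type (0.27, SE 0.13, adjusted p 0.165). UGT84A1, a further hydroxycinnamic acid enzyme, rose at least 1.25-fold in wox4-1 from near the low end of the values (log2 0.32, SE 0.10, adjusted p 0.026). That call ended without wox4-1 base replicate 2 or 3, or wox4-1 internode replicate 2 or 3 (adjusted p up to 0.085), and in a fit of the wox4-1 arrays alone (0.0621). UGT72E1 and UGT72E3, for coniferyl aldehyde and for both monolignols, were not called, with changes of 0.23 each in wox4-1. With each array centred on its median both were called there (limma adjusted p 0.0377 and 0.0322). UGT72E1 was also called without wox4-1 base replicate 3 (0.0499), and UGT72E3 without wox4-1 base replicate 2 (0.0493). In wild type UGT72E1 changed by at least 0.21 and UGT72E3 by 0.06, and no member of UGT72 was called. Counting called, uncalled and dim members alike, changes were positive for 38 of 46 members in wox4-1 and 34 of 46 in wild type. The medians over all probe sets were positive too (0.04 and 0.01), and the share of all probe sets with a positive change was not computed.

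UGT78D1 adds rhamnose to flavonols, the colourless flavonoids that screen ultraviolet light. It read 9.23, 9.29 and 9.26 at the wox4-1 base, against 8.94, 8.89 and 8.84 in the wox4-1 internode. Wild-type base arrays read 9.37, 9.50 and 9.33, against 8.76, 8.74 and 9.05 in the internode. No base array overlapped an internode array, and the rise was 1.29-fold in wox4-1 (log2 0.37, SE 0.09, adjusted p 0.0101) and 1.47-fold in wild type (log2 0.55, SE 0.09, adjusted p 0.000822). UGT78D3, which adds arabinose to flavonols, was dim in all groups and not called (0.14 in wox4-1 and 0.13 in wild type).

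UGT85A7 and UGT85A2 rose at the base in both genotypes. UGT85A7 read 6.03, 6.09 and 5.96 at the wox4-1 base, against 5.51, 5.36 and 5.56 in the wox4-1 internode. In wild type it read 6.20, 6.26 and 6.02 at the base, against 5.44, 5.40 and 5.47 in the internode. The groups were well apart, with a rise of 1.46-fold in wox4-1 (log2 0.55, SE 0.08, adjusted p 0.000408) and 1.65-fold in wild type (log2 0.72, SE 0.08, adjusted p 5.11e-05). UGT85A2 rose 1.49-fold in wox4-1 (log2 0.57, SE 0.09, adjusted p 0.000474) and 1.30-fold in wild type (log2 0.37, SE 0.09, adjusted p 0.0103). The wild-type call of UGT85A2 ended without wild-type base replicate 2 or wild-type internode replicate 3 (adjusted p up to 0.0525). UGT85A3, UGT85A4 and UGT85A5 were not called, with changes from 0.06 to 0.15 in wox4-1 and from 0.07 to 0.14 in wild type.

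The remaining calls along the stem were small. UGT74B1, which puts the glucose on the thiohydroximate in glucosinolate synthesis, rose 1.32-fold in wild type (log2 0.40, SE 0.10, adjusted p 0.0115). The wild-type call ended without wild-type internode replicate 2 (adjusted p 0.0567). In wox4-1 the change of UGT74B1 was 0.27 (SE 0.10, adjusted p 0.0625). It was called there without wild-type internode replicate 2 (limma adjusted p 0.0482) and without wox4-1 base replicate 1 (0.0211). Centring each array on its median (0.0143) or trend and robust variance moderation (0.0362) gave the wox4-1 call too. UGT71B1 rose 1.32-fold in wild type (log2 0.40, SE 0.12, adjusted p 0.0294). That call ended without wild-type base replicate 2 or any 1 wild-type internode array (adjusted p up to 0.127).

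UGT71B8, a relative of the abscisic acid enzyme UGT71B6, rose 1.30-fold in wox4-1 (log2 0.38, SE 0.12, adjusted p 0.0348). Its call ended without wox4-1 base replicate 1 or 3, or wox4-1 internode replicate 2 or 3 (adjusted p up to 0.126), and in a fit of the wox4-1 arrays alone (0.0583). UGT76B1, which acts on isoleucic and salicylic acid in defence, fell in wild type (log2 -0.31, SE 0.09, adjusted p 0.0238). Both of its means were in the dim range (2.95 for base arrays, 3.26 for internode arrays), and the call ended without any 1 wild-type base array or wild-type internode replicate 1 or 2 (adjusted p up to 0.0864). None of the 7 members of UGT73, which include the pathogen response gene UGT73B5, was called in either genotype, with changes from 0.02 to 0.23 in wox4-1 and from -0.16 to 0.10 in wild type.

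The 2 position comparisons share no arrays, but both take their spread from the same fit of all 12 arrays. Of the members called, 7 were called in both genotypes, all in 1 direction: UGT71C1, UGT74D1, UGT76C2, UGT78D1, UGT85A2 and UGT85A7 rose, and UGT84A3 fell. They are 58.3% of the 12 wox4-1 calls and 63.6% of the 11 wild-type calls. The same shares over all probe sets were not computed, so this overlap is not set apart from that of other genes. Changes had the same sign in both genotypes for 40 of 46 members (87%), against 72.6% of all probe sets. Another 5 members were called only in wox4-1 and 4 only in wild type, and for none of these 9 was the difference between the genotypes called.

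**Figure D2:**
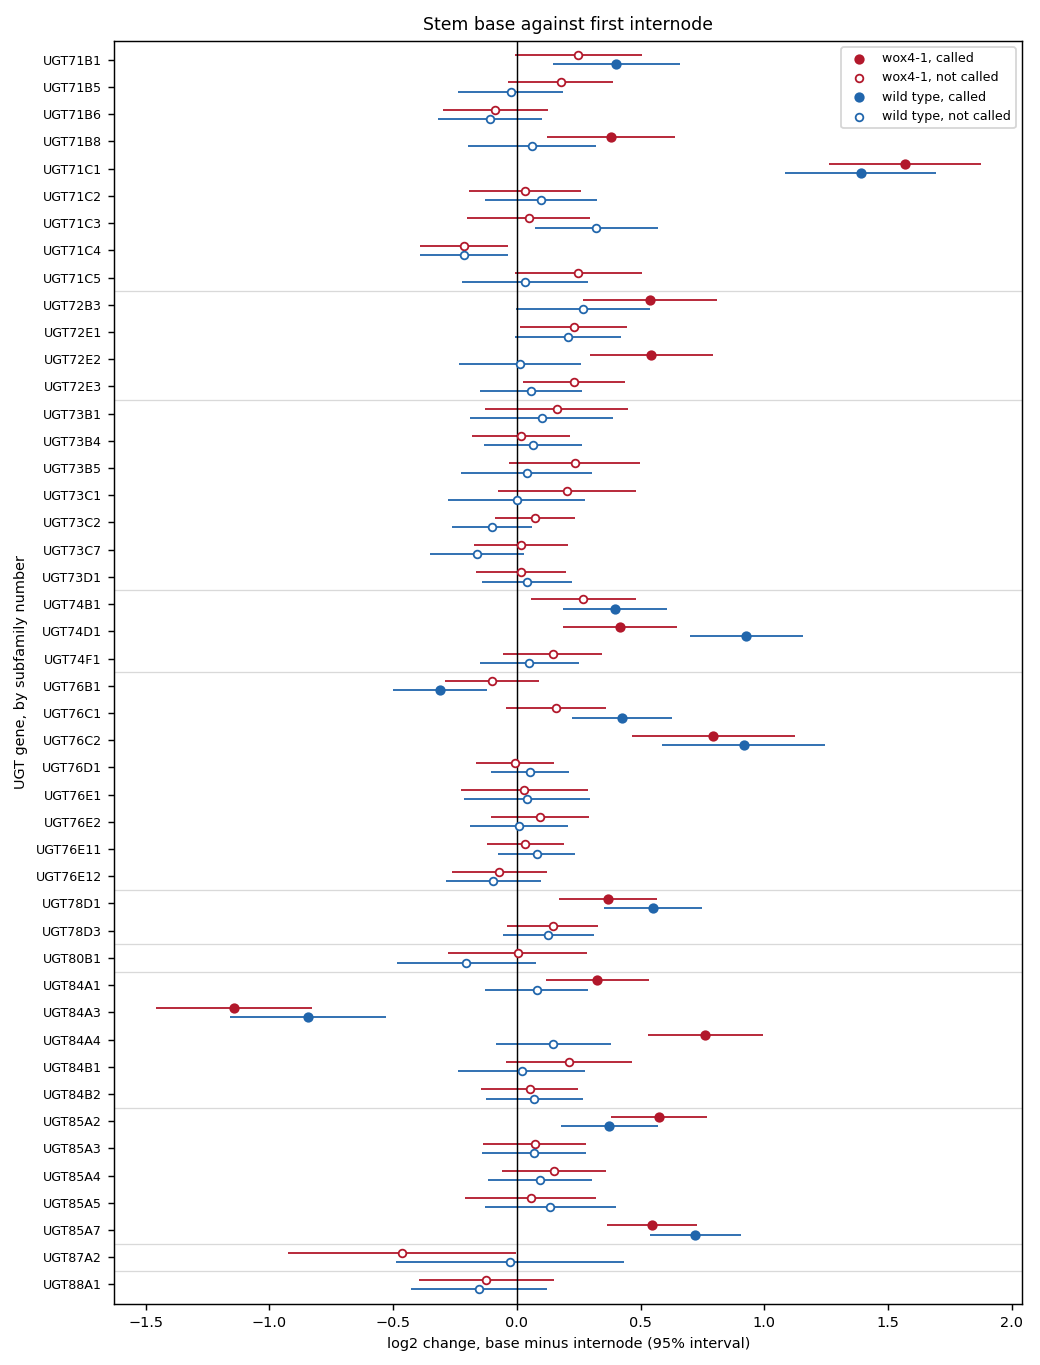
Log2 change of the 46 UGT genes between stem base and first internode (x axis, base minus internode), by gene and subfamily number (y axis), for wox4-1 (red, upper point) and wild type (blue, lower point). Lines are 95% intervals from limma, filled points are called genes and open points are not. Of the filled points, 11 in wox4-1 and 9 in wild type lie right of 0.

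Levels of other genes moved along the stem with these calls. All 4 measured markers of green cortex (LHCB4.1, PRK, RCA and SBPASE) fell at the base in both genotypes. Their mean log2 level was 10.77 to 11 on wox4-1 base arrays and 11.52 to 11.72 on wox4-1 internode arrays. On wild-type arrays it was 10.62 to 10.76 at the base and 11.42 to 11.62 in the internode. Of 3 cambium signalling genes measured by name, MOL1 and CLE41 rose in both genotypes, while CLE44 was not called (0.17 in wox4-1 and -0.19 in wild type). These genes were not read as a measure of cambium cells. The mean over the 3 was 7.73 to 8.05 at the wox4-1 base, 7.44 to 7.66 in the wox4-1 internode, 7.72 to 7.77 at the wild-type base and 7.47 to 7.56 in the wild-type internode. SWEET11, the 1 measured gene of the phloem list, fell in both genotypes, and so did the trichome gene TRY. The epidermis marker FDH was not called in any comparison, and the root markers EXPA7 and EXPA18 were near the low end, with a list mean of at most 3.61. None of the 18 xylem and fibre markers or the 8 flower and pollen markers had a named probe set. The part of these tissues in the UGT results was not tested.

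Members that lie side by side on a chromosome were compared, since UGT genes often arose by tandem duplication. With at most 2 other protein-coding genes between neighbours in TAIR10.1, 29 members formed 12 runs. In 7 runs no member was called along the stem, in 3 some were, and in 2 all were. Several of the 7 uncalled runs hold only members that were dim in all groups. They are UGT73C1 with UGT73C2, UGT76E12 with UGT76E11, UGT73D1 with UGT73C7, and UGT76E1 with UGT76E2. Runs of other genes were not counted, so there is no share to set beside these. The run of UGT84A1, UGT84A3 and UGT84A4 on chromosome 4 was the only one with calls in both directions. In it UGT84A3 fell and both of its neighbours rose in wox4-1. On chromosome 1, UGT85A7 and UGT85A2 rose while the adjacent UGT85A5 and UGT85A3 were not called. On chromosome 2, UGT71C1 rose while UGT71C2 next to it had group means of 4.20 to 4.34, with changes of 0.03 in wox4-1 (95% interval -0.20 to 0.26) and 0.10 in wild type (-0.13 to 0.32). Whether related neighbours share signal on these probe sets was not tested.

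**Figure D3:**
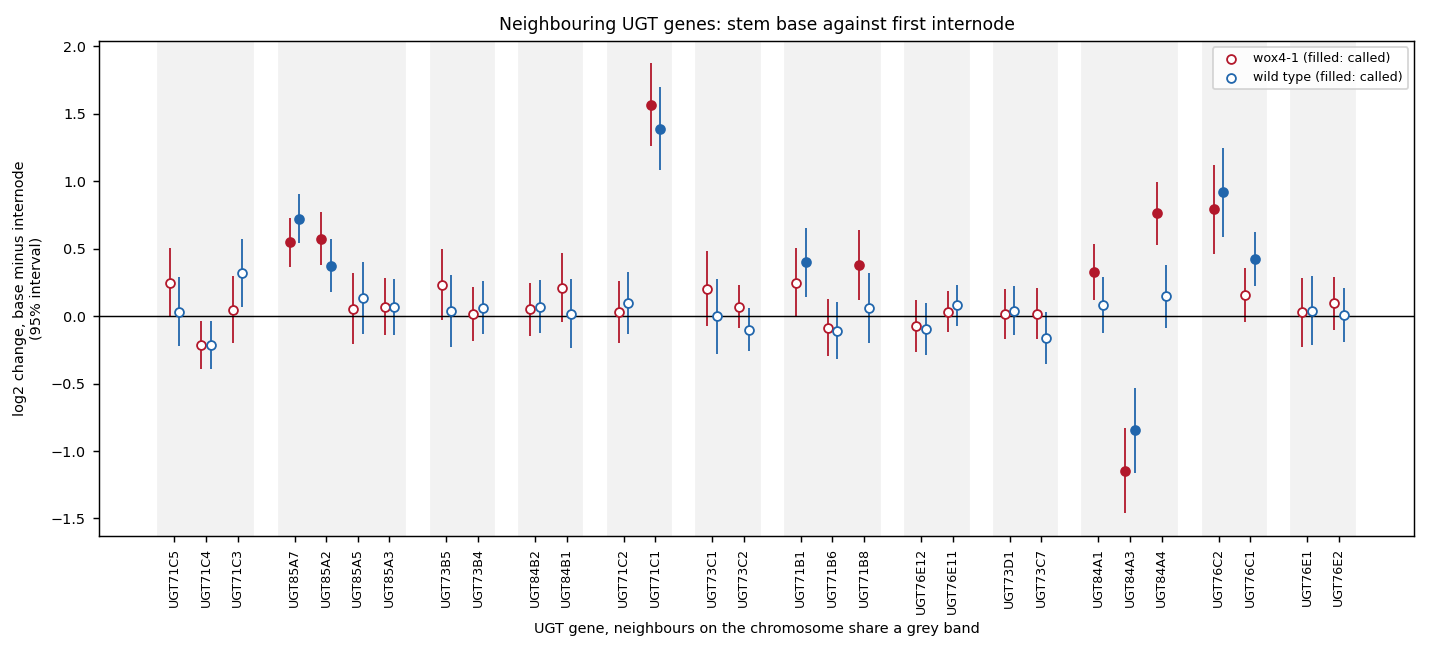
Log2 change between stem base and first internode (y axis, base minus internode, with 95% intervals) for the 29 UGT genes that lie in runs of neighbours (x axis, 1 grey band per run), in wox4-1 (red, left) and wild type (blue, right). Filled points are called. In the band of UGT84A1, UGT84A3 and UGT84A4 the middle gene lies under 0 and its neighbours over 0.

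The next comparison asked how UGT genes differ between wox4-1 and wild type at the stem base. UGT74D1 and UGT71C1 were lower in wox4-1, and UGT72E2 and UGT84A4 were higher. These 4 calls are 8.7% of members, against 5.04% of all probe sets, with 2 higher (4.35%, against 2.52%) and 2 lower (4.35%, against 2.51%). At the base, arrays of the 2 genotypes did not overlap for 16 members (34.8%, against 24.9% of all probe sets). An unadjusted limma p under 0.05 was reached by 8 members, a smaller share than the 21.5% of all probe sets. The median change was 0.05, against 0.02 over all probe sets.

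UGT74D1, the auxin enzyme, lay at 5.38 to 5.72 on the 3 wox4-1 base arrays and at 6.07 to 6.12 on the 3 wild-type base arrays. It fell by 0.55 on the log2 scale in wox4-1 (SE 0.11, limma adjusted p 0.0119). In the first internode its genotype change was -0.04 (SE 0.11, adjusted p 0.975). The base call ended only without wild-type base replicate 2 among single arrays (adjusted p 0.0529), and without both wild-type replicate 2 arrays (0.071).

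UGT71C1 lay at 6.31 to 6.42 at the wox4-1 base and at 6.64 to 7.10 at the wild-type base. It fell by 0.55 (SE 0.14, adjusted p 0.044), a call that is lost when wild-type arrays are paired by replicate number (adjusted p 0.0523). Leaving out any 1 wox4-1 base array, wild-type base replicate 2 or 3, wox4-1 internode replicate 1 or wild-type internode replicate 2 ended it too (adjusted p up to 0.171).

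UGT72E2, the monolignol enzyme, read 5.48, 5.22 and 5.61 at the wox4-1 base, against 5.07, 5.0 and 4.86 at the wild-type base. It rose 1.37-fold (log2 0.46, SE 0.12, adjusted p 0.0384) with no overlap of arrays. UGT84A4 read 5.0, 5.18 and 5.46 at the wox4-1 base, against 4.90, 4.82 and 4.64 at the wild-type base, a rise of 1.35-fold (log2 0.43, SE 0.11, adjusted p 0.0376). Without wox4-1 base replicate 3 or wox4-1 internode replicate 3, or without any 1 wild-type base array, neither gene was called (adjusted p up to 0.126 for each). The call of UGT72E2 also ended without wox4-1 base replicate 1. That of UGT84A4 also ended without wox4-1 base replicate 2, wox4-1 internode replicate 1, wild-type internode replicate 1 or 2, or with a replicate block over all arrays.

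With each array centred on its median, 3 members were higher and 1 lower (2 and 2 as reported), and the call of UGT71C1 was lost (adjusted p 0.0654). The count of 4 rests on single arrays. It was 1 without wox4-1 base replicate 3, 2 without wild-type base replicate 1, 0 without wild-type base replicate 2 and 1 without wild-type base replicate 3. It was 2 without wox4-1 internode replicate 1, without wox4-1 internode replicate 3 or without wild-type internode replicate 2. The actin 3′ to 5′ difference moved with genotype at the base too, at 1.22 to 1.33 in wox4-1 and 1.44 to 1.51 in wild type. Among the cambium signalling genes, CLE44 rose in wox4-1 at the base (0.48, SE 0.11, adjusted p 0.0275), and MOL1 (-0.29, adjusted p 0.154) and CLE41 (0.13, adjusted p 0.433) were not called. The part of either in the UGT calls was not tested.

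Uncalled members with wide gaps at the base included UGT87A2, known as a regulator of flowering time. It read 6.06, 6.21 and 6.16 at the wox4-1 base, against 6.56, 7.05 and 6.57 at the wild-type base, a change of -0.58 (SE 0.21, adjusted p 0.135). Wild-type replicate 2 was the highest array of its group for this gene at the base and, at 7.16 against 6.59 and 6.52, in the internode. UGT84A1, next to UGT84A3 and UGT84A4, had a change of at least 0.28 (SE 0.10, adjusted p 0.111, wild-type mean in the dim range), and UGT71B1 one of -0.37 (SE 0.12, adjusted p 0.0885). For 45 of 46 members the 95% interval of the genotype change at the base lay inside 2-fold in either direction, and for 40 inside 1.5-fold. The exception to the first was UGT87A2 (-1.04 to -0.12).

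In the first internode no UGT gene was called between wox4-1 and wild type by limma, against 0.242% of all probe sets. At an unadjusted p under 0.05 there was 1 member, UGT71C1, and 8% of all probe sets. It read 4.73, 4.62 and 5.04 in wox4-1, against 5.76, 5.52 and 5.30 in wild type, with no overlap. Its change was -0.73 (SE 0.14, adjusted p 0.0569), and it was called without wild-type base replicate 1 (adjusted p 0.0427), without wild-type internode replicate 3 (0.0433) and with trend and robust variance moderation (0.0328). Over its 19 alternatives the adjusted p ranged from 0.0328 to 0.243. The next smallest p-values belonged to UGT73D1 (0.16, SE 0.08, adjusted p 0.698) and UGT76B1 (-0.17, SE 0.09, adjusted p 0.698), both dim in all groups. Arrays did not overlap for 5 members (10.9%, against 14.7% of all probe sets). For 45 of 46 members the 95% interval lay inside 2-fold and for 44 inside 1.5-fold. UGT71C1 was the exception to both (-1.03 to -0.42), and UGT87A2 to the second (-0.61 to 0.32).

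The test of whether the genotype change differs between base and internode called no UGT gene (limma, against 0.0044% of all probe sets), and 3 members had an unadjusted p under 0.05, which 8.03% of all probe sets had. UGT84A4 had the largest such difference, at 0.61 (SE 0.15, adjusted p 0.413): wox4-1 minus wild type was 0.43 at the base and -0.18 in the internode. UGT72E2 followed at 0.53 (SE 0.16, adjusted p 0.503), and UGT74D1 at -0.51 (SE 0.15, adjusted p 0.493). UGT71C1, lower in wox4-1 on both sides, had a difference of 0.18 (SE 0.20, adjusted p 0.839), with a 95% interval of -0.25 to 0.61. In simulated data with few shifted probe sets and independent noise, 19% of shifts of log2 0.5 and 81% of shifts of log2 1 were called in this test. In that setting a difference of the size of UGT84A4 would often be missed.

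**Figure D4:**
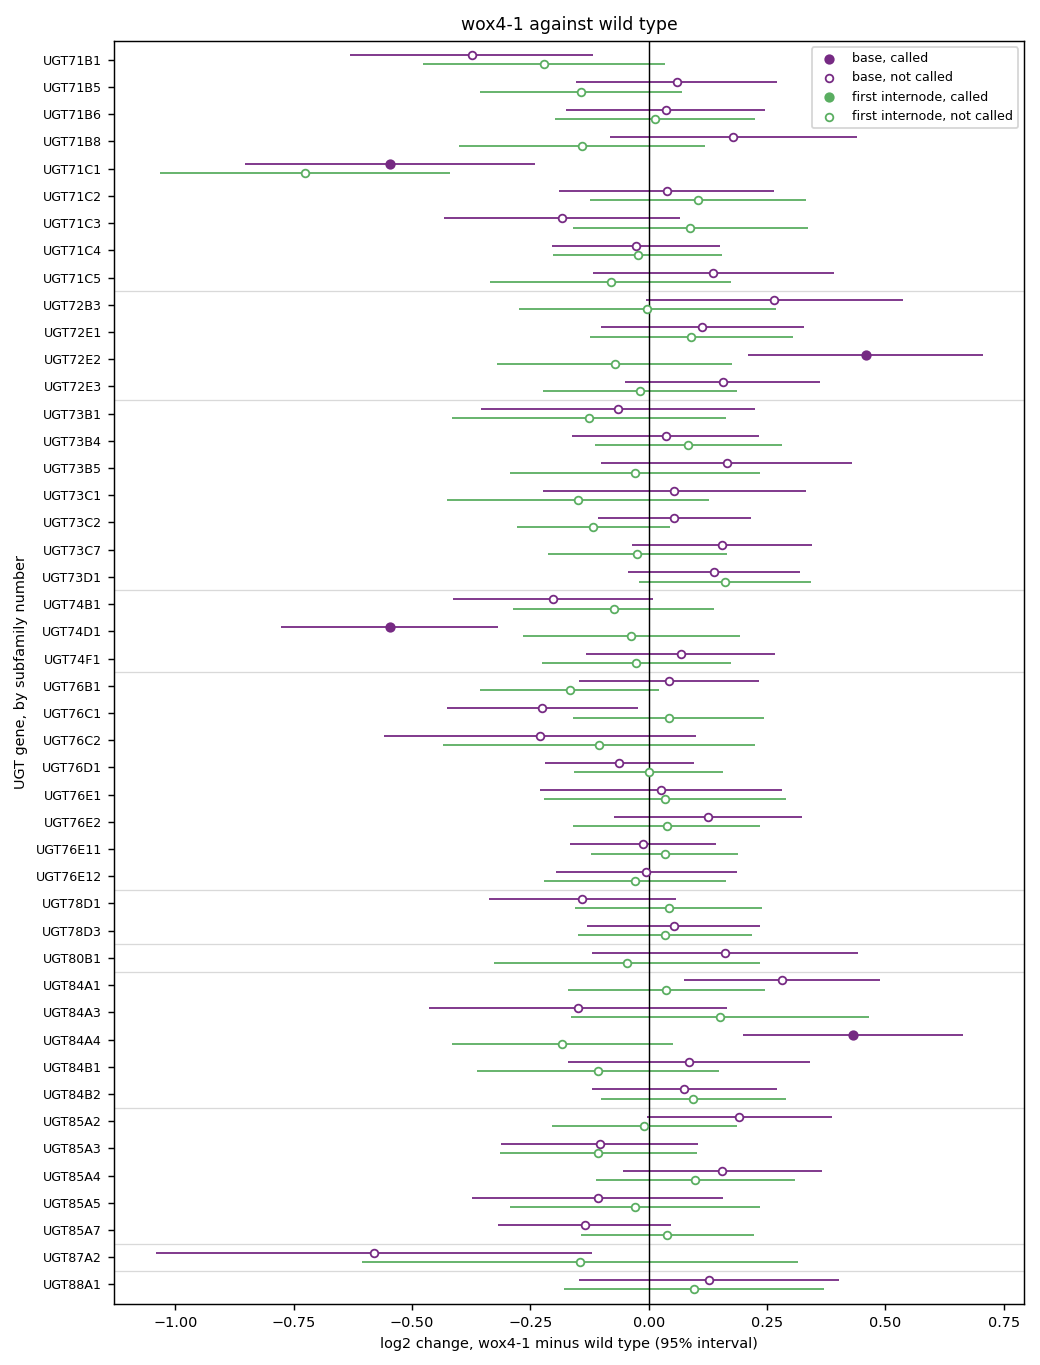
Log2 change of the 46 UGT genes between wox4-1 and wild type (x axis, wox4-1 minus wild type), by gene and subfamily number (y axis), at the base (purple, upper point) and in the first internode (green, lower point). Lines are 95% intervals from limma, and filled points are called. UGT71C1 and UGT74D1 are called left of 0 and UGT72E2 and UGT84A4 right of 0, all at the base, and no point is called in the internode.

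By subfamily, the 4 groups can be set side by side. UGT71C1 was highest at the wild-type base, at 6.92 ± 0.24 (SD, n = 3 here and below), then the wox4-1 base (6.37 ± 0.06), the wild-type internode (5.53 ± 0.23) and the wox4-1 internode (4.80 ± 0.22), with no overlap between neighbours in this order. UGT74D1 had 6.10 ± 0.03 at the wild-type base, 5.55 ± 0.17 at the wox4-1 base, 5.17 ± 0.13 in the wild-type internode and 5.13 ± 0.16 in the wox4-1 internode, and the last pair overlapped. UGT84A4 was highest at the wox4-1 base (5.22 ± 0.23), followed by the wild-type base (4.78 ± 0.14), the wild-type internode (4.64 ± 0.03) and the wox4-1 internode (4.45 ± 0.05), and of these neighbours the wild-type base and internode arrays overlapped. The group with the highest mean was the wox4-1 base for 22 of the 46 members, the wild-type base for 14, the wox4-1 internode for 3 and the wild-type internode for 7. The same count over all probe sets was not computed. Dim members and members with close group means are counted too, so a highest group need not be a difference between groups. UGT88A1 stayed between 9.15 and 9.40 in all 4 group means, and the sterol enzyme UGT80B1 between 5.71 and 5.91.

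Beta-glucosidases, many of which take glucose off such conjugates, were described beside the UGT genes. Of 22 measured genes of that family, 5 rose and 2 fell at the wox4-1 base, and 6 rose and 3 fell at the wild-type base (medians of 0.05 and 0.09). Over all probe sets 11.4% rose and 13% fell at the wox4-1 base, and 9.6% rose and 10.1% fell at the wild-type base. BGLU15, which acts on flavonol glycosides, rose by 1.76 in wox4-1 (SE 0.10) and 1.34 in wild type (SE 0.10). BGLU45, a monolignol glucosidase, fell by 1.61 in wox4-1 (SE 0.11) and by 1.50 in wild type (SE 0.11). PYK10 rose by 1.04 in wox4-1 (SE 0.12) and 0.87 in wild type (SE 0.12), with internode means in the dim range. In wild type BGLU44 rose by 0.85 (SE 0.18), BGLU47 by 0.74 and BGLU33 by 0.73. The smallest of the 6 wild-type rises was that of BGLU46, also a monolignol glucosidase (0.31, SE 0.09, limma adjusted p 0.0253). BGLU46 is named beside BGLU45 and not for the size of its change. In wox4-1 BGLU46 was not called (-0.09, SE 0.09, adjusted p 0.517). Between genotypes at the base, BGLU33 and the monolignol glucosidase BGLU46 fell in wox4-1, by 0.87 and 0.58, and BGLU40 rose by 0.44, where 5.04% of all probe sets were called. In the internode limma called none of the 22 (4 with an unadjusted p under 0.05, smallest adjusted p 0.0576), where 0.242% of all probe sets were called. Of the listed genes of UDP-sugar supply only USP, for UDP-sugar pyrophosphorylase, had a named probe set, and it fell by 0.29 at the wild-type base.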

How the data were processed

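The deposited table holds RMA values on the log2 scale for 22810 probe sets on 12 arrays, made by the authors (RMA is named in the submitters' processing notes, and its version is not given in the sources used here). RMA corrects background, quantile-normalizes arrays and summarises the probes of a set, and it compresses changes of dim genes. The values were used as deposited. Setting aside 64 control probe sets left 22746. Gene names came from the platform annotation: 503 probe sets carry several genes, and 8730 are unnamed here.

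The group means of all 12 arrays were estimated in a single limma 3.58.1 model (R 4.3.3), with eBayes moderation, 5 contrasts and Benjamini-Hochberg adjustment over all probe sets at 0.05. Standard errors are the moderated ones. P-values measure the spread between 3 pooled samples a group, and this number limits the precision. Simulated data had 22746 probe sets with independent noise, and each size of shift was given to 100 of them. There 53% to 63% of shifts of log2 0.5 and 95% to 96% of shifts of log2 1 were called in the 4 contrasts between 2 groups. The real comparisons had other shares of called probe sets, from 0.242% to 24.5%, so their recovery may differ.

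All called members are named, with the 3 smallest p-values where fewer than 3 were called; members with a listed role may be named too, and UGT71B1, UGT71C2, UGT80B1, UGT84A1, UGT85A3 to UGT85A5, UGT87A2 and UGT88A1 were also picked for description after their values were seen. Where 1 mean lay under log2 3.62, compression may make the fold too small, apart from the error given by its SE. The members and lists were chosen with earlier results of these data known. Replicate numbers paired only wild-type base with wild-type internode arrays (correlations of deviations 0.29 to 0.59, against -0.06 to 0.24 in other pairs). The alternatives were median centring, a dim filter, trend and robust moderation, fits of only the 2 groups, replicate blocks, and leaving arrays out.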

Additional observations from a re-analysis of the deposited data

How the results depend on the processing

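None of the 27 called member results changed sign, each under at most 19 of the 20 alternatives. The log2 change can move only with median centring or when arrays of the groups compared are left out. Under the other alternatives the sign was fixed in advance, and only the p-value could change. Of the 27 results, 16 stayed called under every alternative that could be run and 11 were lost under at least 1. Leaving out single arrays gave 10 to 13 called members for base over internode in wox4-1, 8 to 12 in wild type, 0 to 4 for wox4-1 over wild type at the base, 0 to 1 in the first internode, and 0 for the difference between genotype effects. Without both wild-type replicate 2 arrays, 7 members were called in wild type (11 as reported) and 0 between genotypes at the base (4 as reported). In a fit of only the 2 groups compared, 10 were called in wox4-1 along the stem, 12 in wild type, 1 between genotypes at the base and 0 in the internode. With trend and robust moderation, 1 was called in the first internode. With each array centred on its median, 15 members rose and 1 fell in wox4-1 along the stem (11 and 1 as reported), and 3 rose and 1 fell between genotypes at the base. Over all probe sets this centring moved the share of higher calls to 67.5% from 46.8% in wox4-1 and to 72.4% from 50.1% between genotypes at the base. A replicate block over all 12 arrays gave 12, 11, 3, 0 and 0 called members in the 5 comparisons, in the order above. A replicate block of the wild-type arrays only, added after seeing the data, gave 12, 11, 3, 0 and 0, and of the called member results it ended only that of UGT71C1 at the base. No UGT gene had several probe sets, so the choice of probe set changed nothing. The cause of these changes was not tested.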

Other observations

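Probe sets shared by 2 genes lie outside the 46 members, and 3 of them carry a UGT name. The shared set of UGT71D1 and AT2G29710 had group means of 8.22 at the wox4-1 base, 8.27 at the wild-type base, 8.18 in the wox4-1 internode and 7.91 in the wild-type internode. It rose by 0.36 at the wild-type base (limma adjusted p 0.0485) and changed by 0.04 in wox4-1 (adjusted p 0.842). The probe set for UGT89B1 and AT1G73885 had group means from 7.88 to 8.11, and that for UGT73B2 and UGT73B3 from 3.31 to 3.43. Neither was called in any of the 5 comparisons. Which of the 2 genes gives the signal cannot be told from a shared probe set.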
